A study of Mus musculus with 24 samples.

Results

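The CC chemokines described here are the 10 genes Ccl2, Ccl3, Ccl4, Ccl5, Ccl6, Ccl7, Ccl8, Ccl9, Ccl12 and Ccl24, taken from a table of 17301 genes by matching each Ensembl identifier, without its version, to a mouse symbol. All 10 were in the table. All 10 also passed the filter on low values, a mean of at least 1 RPKM (reads scaled by exon length and library size) in at least 1 group, and so belonged to the 12878 genes tested. Expression was measured by RNA sequencing in myeloid cells sorted from 2 tissues: colon lamina propria (LP) of C57BL/6J mice, which the labels call healthy, and tumours of the colon from Apc Min/+ animals, in which a germline mutation of Apc leads to intestinal adenomas. From each tissue 4 populations were sorted: F4/80hi MHCIIhi macrophages, F4/80hi MHCIIlow macrophages, Ly6Chi MHCII- monocytes and Ly6Ghi F4/80- neutrophils. That gave 8 groups of 3 libraries, each library made from the pooled tissue of many young adult mice of both sexes. Dextran sodium sulphate, an agent that damages the epithelium, had been used to speed adenoma formation in the Apc Min/+ animals, and the methods describe the same agent, at another concentration, for the C57BL/6J controls. LP and tumour also went through different digestions and density gradients, so tissue, genotype and preparation cannot be told apart in any comparison of tumour with LP.

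CC chemokines are small secreted proteins that bind G protein-coupled receptors on leukocytes and direct their movement. Ccl2, Ccl7 and Ccl12 act on Ccr2, the receptor through which inflammatory monocytes leave the bone marrow and enter tissue. Ccl3, Ccl4 and Ccl5 are inflammatory chemokines that attract monocytes and lymphocytes, Ccl6 and Ccl9 are rodent ligands of Ccr1, mouse Ccl8 acts on Ccr8, and Ccl24 is an eotaxin that attracts eosinophils through Ccr3.

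On GRCm38/mm10, 9 of the 10 genes lay on chromosome 11 in a pair of blocks, and Ccl24 lay on chromosome 5 (bases 135569937 to 135573049, minus strand). The first block held Ccl2 (82035571 to 82037453), Ccl7 (82045712 to 82047525), Ccl12 (82101845 to 82103400) and Ccl8 (82115185 to 82116799), all on the plus strand. The second held Ccl5 (83525778 to 83530518), Ccl9 (83572919 to 83578636), Ccl6 (83587882 to 83593087) and Ccl3 (83647844 to 83649355) on the minus strand and Ccl4 (83662584 to 83664683) on the plus strand. No exon of a member overlapped another annotated gene, and only Ccl9 shared 51-base stretches with transcripts of other genes (1.8% of its stretches).

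The promoters of Ccl12 and Ccl8 are shown because these neighbours were the members read in macrophages and nearly or wholly absent from the other populations. The sequences are the 250 bases before each gene start from RefSeq (GRCm38.p6, plus strand, 5′ to 3′), and capitals mark the letters TATAAA.
Ccl12, chr11:82101595-82101844: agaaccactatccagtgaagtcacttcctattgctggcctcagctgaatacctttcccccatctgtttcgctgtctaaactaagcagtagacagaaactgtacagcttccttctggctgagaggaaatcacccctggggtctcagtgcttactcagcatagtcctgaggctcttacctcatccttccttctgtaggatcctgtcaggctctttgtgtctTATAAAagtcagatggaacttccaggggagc
Ccl8, chr11:82114935-82115184: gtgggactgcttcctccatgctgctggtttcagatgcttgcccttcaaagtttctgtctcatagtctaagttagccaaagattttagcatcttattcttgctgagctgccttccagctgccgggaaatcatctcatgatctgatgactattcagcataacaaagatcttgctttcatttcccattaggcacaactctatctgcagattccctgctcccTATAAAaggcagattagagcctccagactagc
The letters began 31 bases before the start of Ccl12 and 32 bases before that of Ccl8. Read on both strands, TATAAA stood in 12.3% of 32544 promoters of this length. The promoter table matched 5 of the 10 members (Ccl3, Ccl6, Ccl8, Ccl9 and Ccl12). Of these, Ccl9 also held TATAAA, together with an NF-kB motif found in 3.92% of promoters and the AP-1 motif TGANTCA found in 6.73%. The C/EBP motif TTGCNNAA, the ISRE motif and the PU.1 motif GAGGAAGT were searched in the same way and matched none of the 5.

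Depth ran from 12.838 M to 41.718 M reads on genes per library, with a median of 26.389 M. The deposited values carry a scaling factor between libraries, and the library size they use was 0.47 to 0.48 of the summed reads in tumour neutrophils, 0.63 to 0.68 in LP neutrophils and 0.98 to 1.51 in the other groups. A library with no read of a gene is listed at a value set by a prior count of 0.25 reads, so fitted differences against such libraries depend on that prior. The summed RPKM of 10 macrophage genes was 3800 to 7570 in macrophages, 641 to 830 in monocytes and 194 to 270 in neutrophils, and that of 8 neutrophil genes was 12200 to 32800 in neutrophils and 31.0 to 691 elsewhere. Genes of other cells were present and moved with tissue. The summed RPKM of 6 fibroblast genes was 6.83 to 62.0 in LP libraries and 0.0128 to 1.57 in tumour libraries, where Lum had no read in any group. That of 6 B and plasma cell genes was 358 to 1300 in LP and 0.66 to 20.1 in tumour neutrophils. In monocytes it was 157 to 575 and 0.192 to 4.68. The 7 epithelial genes went the other way in neutrophils, with 12.7 to 62.2 in LP and 151 to 307 in tumours. For both lists the tissues overlapped in macrophages. The part of these cells in the chemokine differences was not tested. In bulk libraries such as these, fewer cells of a type and less RNA per cell cannot be told apart.

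On the deposited scale neutrophils held the most CC chemokine RNA. The summed RPKM of the 10 genes was 5948 to 7254 in tumour neutrophils and 2487 to 3119 in LP neutrophils, with no overlap between the tissues. It was 1577 to 2300 in LP MHCIIlow macrophages and 550.4 to 1294 in the other groups. This order depends on the scaling. With library sizes as summed reads, an alternative chosen after seeing the data, the sum was 2873 to 3390 in tumour neutrophils, 2208 to 3044 in LP MHCIIlow macrophages and 1609 to 2128 in LP neutrophils. LP MHCIIlow macrophages then lay above LP neutrophils and overlapped tumour neutrophils, while the neutrophils of the tissues still did not overlap. The make-up differed as well. Ccl3 was 52.0% of the sum in LP neutrophils and 51.3% in tumour neutrophils, and Ccl3, Ccl4 and Ccl6 together made up nearly all of it there. In LP MHCIIlow macrophages the leading gene by mean was Ccl7, with 33.9%, followed by Ccl6 (15.3%), Ccl9 (15.1%) and Ccl2 (13.8%). Ccl4 led by mean in the other macrophage groups, with 26.7% in LP MHCIIhi, 39.5% in tumour MHCIIhi and 28.3% in tumour MHCIIlow cells. In LP MHCIIhi library V, however, Ccl4 (16.43%) stood below Ccl7 (20.39%) and Ccl9 (20.36%). In monocytes Ccl9 (26.9% in LP, 24.6% in tumour) and Ccl6 (25.2% and 27.0%) were the leading pair by mean. In LP monocyte library IV Ccl4 (28.34%) stood above both.

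**Figure D1:**
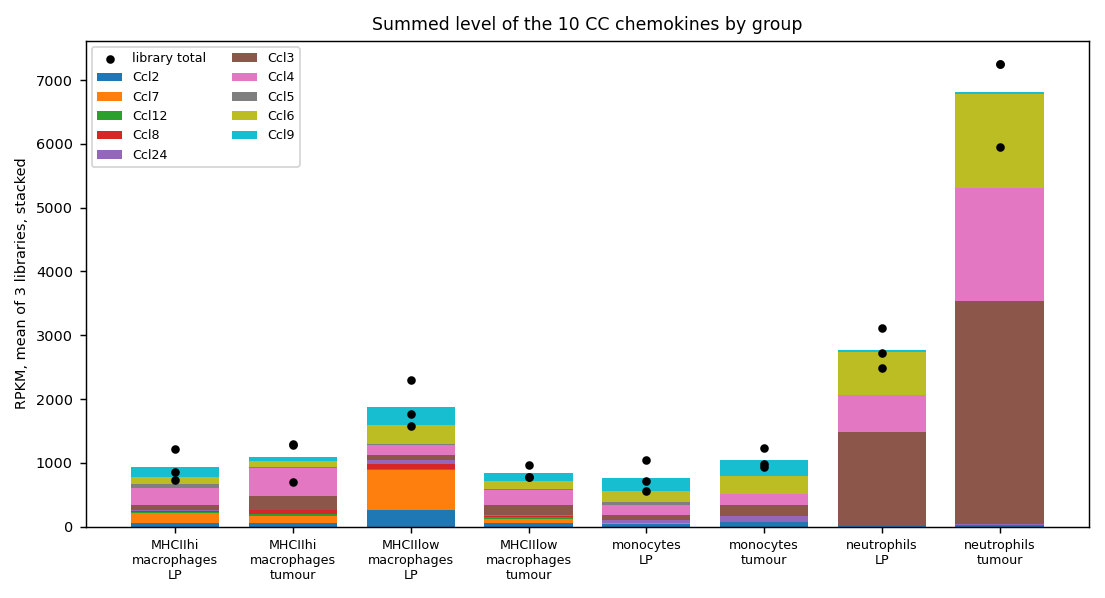
Stacked bars give the mean RPKM of 3 libraries for each of the 10 CC chemokines (y axis) in the 8 groups (x axis), and black points give the sum in each library. Tumour neutrophils stand highest (5948 to 7254), LP neutrophils next (2487 to 3119), and Ccl3, Ccl4 and Ccl6 fill both of these bars. With library sizes as summed reads LP MHCIIlow macrophages (2208 to 3044) lie above LP neutrophils (1609 to 2128).

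**Figure D2:**
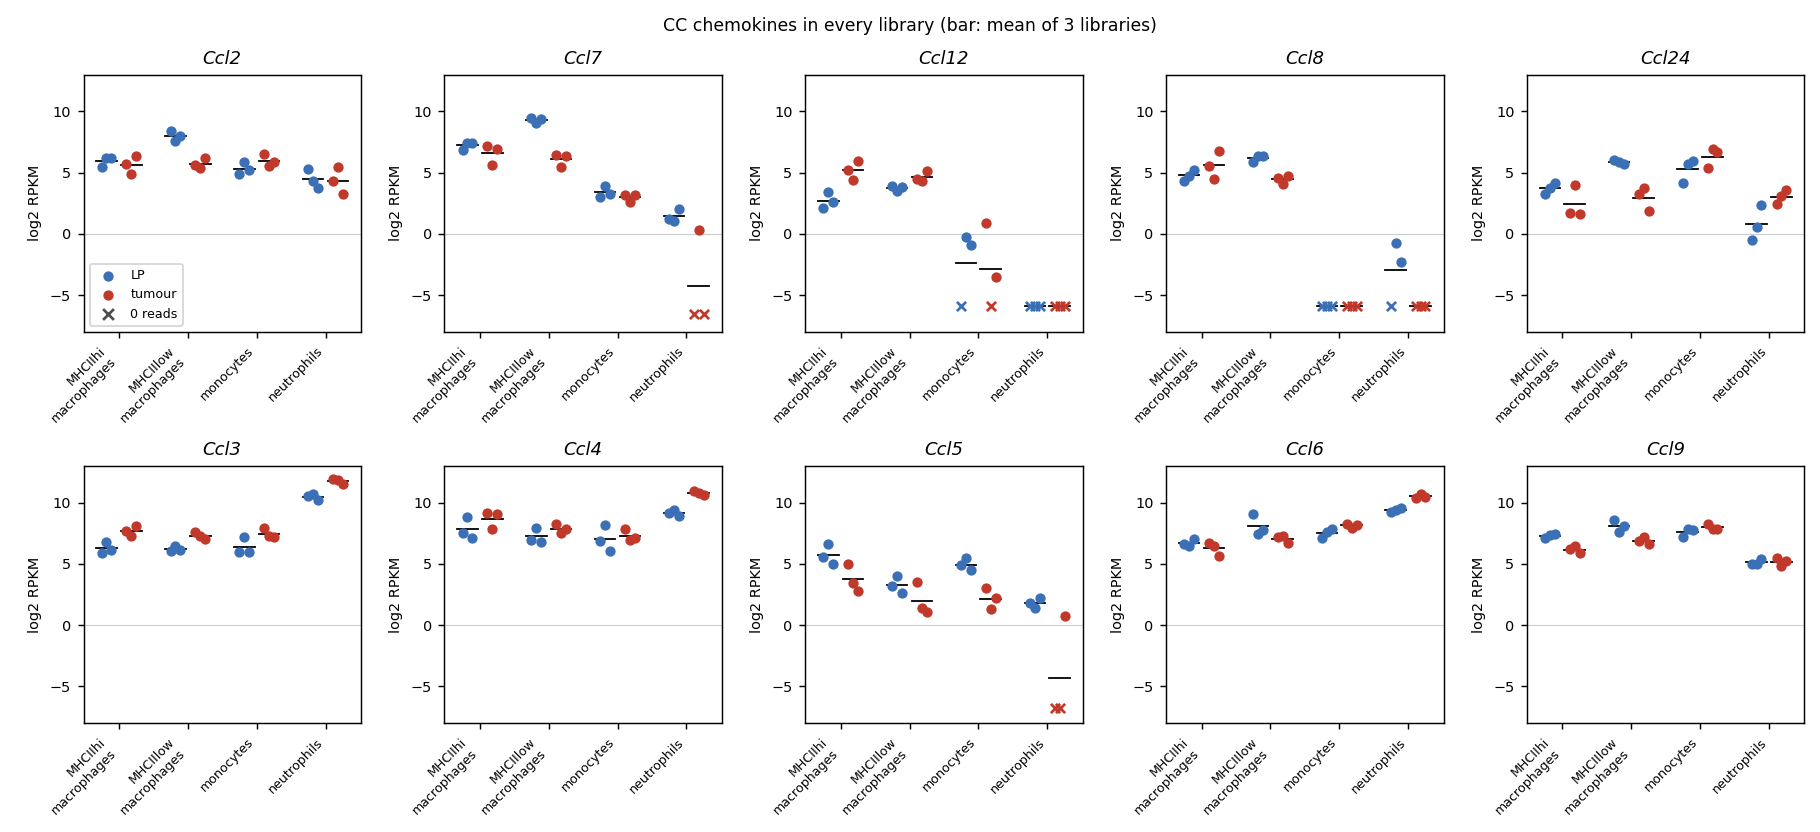
Each panel plots 1 CC chemokine as log2 RPKM (y axis) in the 24 libraries by population (x axis), with LP in blue, tumour in red, crosses for libraries with 0 reads and a bar at the mean of 3 libraries. Ccl8 has no read in any monocyte library, Ccl3 and Ccl6 are highest in neutrophils, and tumour points for Ccl3 lie above LP points in every population.

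Ccl3, a ligand of Ccr1, was the 1 member called higher (adjusted p under 0.05) in tumours than in LP in all 4 populations. It stood at 60, 107 and 69.7 RPKM in LP MHCIIhi macrophages and at 206, 151 and 270 RPKM in tumour MHCIIhi macrophages. In MHCIIlow macrophages the values were 65.0, 87.5 and 70.8 RPKM in LP and 189, 155 and 134 RPKM in tumours. In monocytes they were 61.0, 145 and 64.5 RPKM in LP against 243, 157 and 146 RPKM in tumours, and in neutrophils 1460, 1710 and 1180 RPKM against 3890, 3730 and 2900 RPKM. LP and tumour libraries did not overlap in any of the 4, although the highest LP monocyte library (IV) lay just under the lowest tumour one. The log2 difference was 1.41 ± 0.30 (SE, adjusted p = 0.00219) in MHCIIhi macrophages, 1.10 ± 0.30 (0.0112) in MHCIIlow macrophages, 1.09 ± 0.30 (0.0255) in monocytes and 1.28 ± 0.30 (0.00295) in neutrophils, from limma with the Benjamini-Hochberg adjustment over 12878 genes. The tumour effect on Ccl3 did not pass the threshold for a difference between neutrophils and monocytes (0.18, 95% interval −0.71 to 1.07) or between macrophages and monocytes (0.16, −0.61 to 0.93). In monocytes the call was lost without LP library III (adjusted p = 0.133), LP library V (0.124) or tumour library I (0.138), and with the compared libraries alone (0.0791). In MHCIIlow macrophages it was lost without tumour library I (0.0506).

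Neutrophil genes moved with this rise in the macrophages and monocytes. The summed neutrophil genes in MHCIIlow macrophages were 0.214% to 0.617% of their mean level in LP neutrophils and 0.862% to 2.33% of that in tumour neutrophils. Ccl3 was 4.48% to 6.03% and 3.82% to 5.40% of its neutrophil level in the same libraries. These percentages are of the whole level of Ccl3 and not of its rise, so they cannot divide the rise between sources. In MHCIIhi macrophages the neutrophil genes stood at 0.358% to 0.393% in LP and 0.519% to 0.757% in tumours, and Ccl3 at 4.14% to 7.40% and 4.32% to 7.70%. Ly6g had no read in MHCIIhi macrophages of either tissue. In monocytes the summed RPKM of the neutrophil genes was 101 to 139 in LP and 170 to 305 in tumours. Immediate-early genes, which are induced within minutes of cell handling or stimulation, also moved: 4 of 13 rose and 0 fell in monocytes, with summed RPKM of 4310 to 5970 in LP and 7340 to 8330 in tumours, and 5 rose and 1 fell in MHCIIhi macrophages, with 5250 to 5980 and 4960 to 7320. In MHCIIlow macrophages 1 rose and 2 fell. The part of neutrophil RNA or of immediate-early induction in the rise of Ccl3 was not tested.

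**Figure D3:**
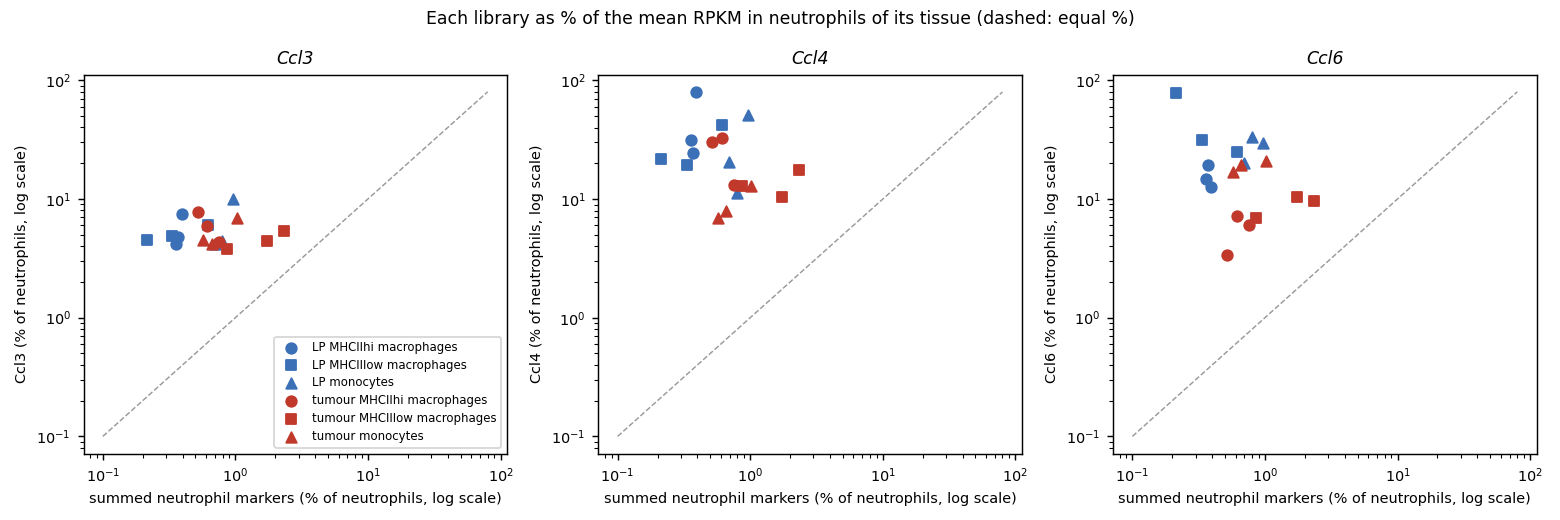
For each macrophage and monocyte library, the summed RPKM of 8 neutrophil genes (x axis, log scale) and of Ccl3, Ccl4 or Ccl6 (y axis, log scale) is drawn as a percentage of the mean in neutrophils of the same tissue, with LP in blue and tumour in red. Every point lies above the dashed line of equal percentages, which compares whole levels and not the rise in tumours. For Ccl3 the y values run from 3.82% to 10.0% and the x values from 0.214% to 2.33%.

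Ccl4, an inflammatory chemokine encoded beside Ccl3, differed between the tissues in neutrophils. It stood at 585, 673 and 480 RPKM in LP neutrophils and at 1930, 1800 and 1550 RPKM in tumour neutrophils, with no overlap. The log2 difference was 1.61 ± 0.48 (adjusted p = 0.0151), and the call was lost without LP library V (0.052) and with array weights (0.133). In the other 3 populations the tissues overlapped, with differences of 0.85, 0.63 and 0.25 in MHCIIhi macrophages, MHCIIlow macrophages and monocytes (adjusted p = 0.251, 0.394 and 0.833). The spread within groups was wide there, as in LP monocytes with 120, 294 and 65.7 RPKM.

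Ccl6, a rodent ligand of Ccr1, rose in tumour neutrophils and fell in tumour MHCIIlow macrophages. LP neutrophils held 599, 679 and 755 RPKM and tumour neutrophils 1360, 1650 and 1440 RPKM (log2 difference 1.13 ± 0.33, adjusted p = 0.0122), and the groups did not overlap. In MHCIIlow macrophages the values were 533, 170 and 212 RPKM in LP and 143, 154 and 103 RPKM in tumours (−1.03 ± 0.33, adjusted p = 0.0267). LP library II stood far above the other 2 there. Its summed monocyte genes were 452 RPKM, against 124 RPKM in LP library III and 141 RPKM in IV, and their part was not tested. Without library II the difference was −0.54 (adjusted p = 0.202). The call was also lost without tumour library VII (0.117) and with the compared libraries alone (0.0838). The rise in neutrophils was lost under the replicate block with the donor number as a fixed term (0.58, adjusted p = 0.0874). That block joined LP and tumour pools of different mice by number. In monocytes Ccl6 was 135, 200 and 226 RPKM in LP and 311, 250 and 286 RPKM in tumours, without overlap but with an adjusted p of 0.279.

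The rises in neutrophils depend on how libraries are scaled. The median of all genes tested differed by −0.12 on the log2 scale between tumour and LP neutrophils, and by −0.59 when library sizes were the summed reads. Relative to the median of all genes the differences were 1.4 for Ccl3, 1.73 for Ccl4 and 1.25 for Ccl6. With library sizes as summed reads, an alternative chosen after seeing the data, the log2 difference of Ccl3 was 0.81 (adjusted p = 0.0315), of Ccl4 1.14 (0.0624), of Ccl6 0.66 (0.0829) and of Ccl24 1.71 (0.0533). Quantile normalization also ended the calls of Ccl3 (0.27), Ccl4 (0.124) and Ccl6 (0.104). All 3 genes kept a positive difference under both scalings. Immediate-early genes moved with them: 10 of 13 rose in tumour neutrophils and 0 fell, and their summed RPKM was 11700 to 14000 in LP and 29500 to 36500 in tumour neutrophils. Their part in these rises was not tested.

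Ccl2 and Ccl7, both ligands of Ccr2, were highest in LP MHCIIlow macrophages and lower in tumour MHCIIlow macrophages. Ccl2 stood at 331, 192 and 260 RPKM in LP MHCIIlow macrophages and at 49.1, 41.4 and 71.2 RPKM in tumour MHCIIlow macrophages, so that every LP library lay above every tumour library. The log2 difference was −2.28 ± 0.48 (adjusted p = 0.00144). Ccl7 stood at 706, 516 and 679 RPKM in LP against 84.9, 44.9 and 79.9 RPKM in tumours, also without overlap. Its log2 difference was −3.22 ± 1.08 (adjusted p = 0.0356), with a wide error because the fit shares 1 spread per gene over the 8 groups and tumour neutrophils held 0, 8 and 0 reads of Ccl7. The Ccl7 call was lost when any 1 of the 6 libraries was left out (differences −2.93 to −3.39, adjusted p = 0.06 to 0.114). It was also lost under the replicate block with the donor number as a fixed term (0.234), which here joined LP and tumour pools of different mice by number.

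In MHCIIhi macrophages the same 2 genes did not pass the threshold between the tissues. Ccl2 was 44.4, 71.0 and 72.1 RPKM in LP and 52.3, 29.7 and 81.6 RPKM in tumours (−0.28, 95% interval −1.28 to 0.72). Ccl7 was 116, 173 and 175 RPKM in LP and 146, 50 and 123 RPKM in tumours (−0.65, −2.91 to 1.61). The tissues overlapped for both. The tumour effect in MHCIIlow minus that in MHCIIhi macrophages was −2.0 ± 0.68 for Ccl2 (adjusted p = 0.169) and −2.57 ± 1.53 for Ccl7 (0.544), so a difference between the subsets did not pass the threshold for either. With voom on the recovered reads it passed for Ccl2 (0.0267) and Ccl7 (0.0014).

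Within LP, Ccl2 was higher in MHCIIlow than in MHCIIhi macrophages (2.06 ± 0.48, adjusted p = 0.0106), a comparison that rests on the same 3 LP MHCIIlow libraries as the fall in tumours. It was lost without LP MHCIIhi library III (0.0612), without LP MHCIIlow library II (0.0541) and under the replicate block with the donor number as a fixed term (0.054). For Ccl7 the difference was 2.05 ± 1.08 (adjusted p = 0.303) although the 2 subsets did not overlap, and with the compared libraries alone its adjusted p was 0.00181. Markers of other cells moved alongside. The summed fibroblast genes were 6.83 to 21.0 RPKM in LP MHCIIhi, 19.6 to 62.0 RPKM in LP MHCIIlow and 0.322 to 0.648 RPKM in tumour MHCIIlow macrophages. The 6 monocyte genes were 46.1 to 51.3, 124 to 452 and 10.1 to 22.4 RPKM, and the 452 RPKM was in LP MHCIIlow library II. In LP monocytes the fibroblast genes stood at 13.2 to 28.8 RPKM, while Ccl7 was 7.90, 15 and 9.66 RPKM. The part of these cells in the levels of Ccl2 and Ccl7 was not tested.

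Ccl7 separated macrophages from the other cells in both tissues. Monocytes held 7.90 to 15 RPKM in LP and 6.02 to 8.98 RPKM in tumours, below every macrophage library. The log2 difference of macrophages from monocytes was 4.88 ± 0.94 in LP (adjusted p = 0.00051) and 3.36 ± 0.94 in tumours (0.00748). In LP neutrophils Ccl7 was 2.36, 2.05 and 4.20 RPKM from 45, 22 and 72 reads. Tumour neutrophils had 0, 8 and 0 reads, and the mean RPKM was 2.87 in LP and 0.42 in tumours. The fitted log2 difference of −5.68 (adjusted p = 0.000486) depends on the prior count, and with voom on the recovered reads the adjusted p was 0.126.

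Ccl12, a mouse ligand of Ccr2, and Ccl8, a ligand of Ccr8, marked macrophages. Ccl8 had 0 reads in all 6 monocyte libraries and in the 3 tumour neutrophil libraries, and 0, 4 and 2 reads in LP neutrophils. LP macrophages held 19.9, 27.0 and 37.7 RPKM in MHCIIhi and 57.6, 81.9 and 82.4 RPKM in MHCIIlow cells. Tumour macrophages held 47.1, 22.7 and 110 RPKM in MHCIIhi and 24, 16.4 and 27.1 RPKM in MHCIIlow cells. Against a floor of 3 reads per library, Ccl8 was at least 290-fold higher in macrophages than in monocytes of LP and at least 197-fold higher in tumours (adjusted p = 4.74e-10 and 2.63e-10).

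The tissue difference of Ccl8 ran in different directions in the macrophage subsets without passing the threshold. It was 0.85 (95% interval −0.86 to 2.55) in MHCIIhi macrophages, where the tissues overlapped, and −1.73 (−3.43 to −0.02, adjusted p = 0.142) in MHCIIlow macrophages, where every LP library lay above every tumour library. With the compared libraries alone the fall in MHCIIlow cells had an adjusted p of 0.0018, and with voom on the recovered reads 0.00314. The call of Ccl8 between tumour and LP neutrophils (−2.88, adjusted p = 0.0107) rests on 0, 4 and 2 reads against none, and was lost without LP library IV (0.0788), so no fold is given.

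Ccl12 was higher in tumour macrophages by value. LP MHCIIhi macrophages held 4.31, 10.5 and 6.25 RPKM and tumour MHCIIhi macrophages 37.2, 20.9 and 62.1 RPKM. LP MHCIIlow macrophages held 15.3, 11.5 and 14.2 RPKM and tumour MHCIIlow macrophages 22.6, 19.9 and 34.6 RPKM. The tissues did not overlap in either subset, but the differences of 2.47 ± 1.28 (adjusted p = 0.2) and 0.88 ± 1.28 (0.69) did not pass the threshold. The shared spread includes LP monocytes with 0, 19 and 10 reads and tumour monocytes with 30, 0 and 1 reads. With the compared libraries alone both differences passed (adjusted p = 0.00328 and 0.0269), and voom on the recovered reads gave 0.00154 in MHCIIhi cells. Macrophages exceeded monocytes in LP (5.62 ± 1.11, adjusted p = 0.000657) and in tumours (7.75 ± 1.11, 1.16e-05), and neutrophils of both tissues had 0 reads. The size of these differences depends on the prior count and ran from 2.90 to 6.66 in LP and from 4.41 to 9.62 in tumours over the alternatives, all past the threshold.

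Ccl24, the eotaxin among the members, fell in tumour MHCIIlow macrophages and rose in tumour neutrophils. In MHCIIlow macrophages it was 66.5, 57.2 and 53.3 RPKM in LP and 9.76, 13.1 and 3.61 RPKM in tumours, without overlap (−2.93 ± 0.69, adjusted p = 0.00387). The summed monocyte genes were 124 to 452 RPKM and 10.1 to 22.4 RPKM in the same groups, and their part in this fall was not tested. In neutrophils it was low, with 0.722, 1.51 and 5.14 RPKM in LP and 5.29, 8.29 and 11.7 RPKM in tumours (2.18 ± 0.69, adjusted p = 0.0212). That rise was lost without LP library III (0.126), LP library IV (0.0588) or tumour library V (0.0756), and with voom on the recovered reads (0.335). Monocytes held the most in tumours, at 40.8, 120 and 100 RPKM, against 3.08 to 15.6 RPKM in tumour macrophages. Macrophages were below monocytes in tumours (−3.61 ± 0.60, adjusted p = 6.94e-05), and in LP the difference was −0.46 (95% interval −1.71 to 0.80). In MHCIIhi macrophages the tumour libraries held 3.23, 15.6 and 3.08 RPKM against 9.54, 13.4 and 17.8 RPKM in LP, and without tumour library V, the high one, the difference of −1.29 (adjusted p = 0.221) became −2.06 (0.0455). Of 7 listed eosinophil genes 3 were measured, and their summed RPKM was 19.7 to 38.8 in LP and 19.1 to 30.3 in tumour neutrophils and 0.331 to 7.86 in the other groups.

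Ccl9, a rodent ligand of Ccr1, fell in both tumour macrophage subsets. It was 141, 163 and 174 RPKM in LP MHCIIhi macrophages and 72.4, 86.4 and 58.6 RPKM in tumour MHCIIhi macrophages (−1.15 ± 0.24, adjusted p = 0.00165). In MHCIIlow macrophages it was 390, 200 and 279 RPKM in LP and 117, 148 and 96.9 RPKM in tumours (−1.23 ± 0.24, adjusted p = 0.000683). The tissues overlapped in neither subset. The summed monocyte genes were 46.1 to 51.3 RPKM in LP and 5.61 to 8.99 RPKM in tumour MHCIIhi macrophages, where 5 of 6 fell. In MHCIIlow macrophages they were 124 to 452 RPKM and 10.1 to 22.4 RPKM, and 2 of 6 fell. Their part in the fall of Ccl9 was not tested. Monocytes moved the other way by value, from 150, 230 and 220 RPKM in LP to 308, 232 and 236 RPKM in tumours (0.38 ± 0.24, adjusted p = 0.379). On the deposited scale Ccl6 and Ccl9 thus had their peaks in different cells: neutrophils held the most Ccl6 and the least Ccl9, at 28.3 to 45.1 RPKM. For Ccl6 the order against LP MHCIIlow library II depends on the scaling. That library held 39722 Ccl6 reads in 31.338 M reads on genes, and LP neutrophil library V held 29092 in 33.187 M.

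Ccl5, a ligand of Ccr1 and Ccr3, was highest in LP MHCIIhi macrophages. It stood at 47.5, 97.4 and 32.4 RPKM there and at 32.5, 10.7 and 6.93 RPKM in tumour MHCIIhi macrophages, with overlap by a narrow margin (−1.99 ± 1.28, adjusted p = 0.324). In monocytes it was 29.4, 44.2 and 22.1 RPKM in LP and 8.24, 2.44 and 4.55 RPKM in tumours, without overlap (−2.76 ± 1.28, adjusted p = 0.206). The spread was again set in part by tumour neutrophils, with 0, 0 and 12 reads. With the compared libraries alone the adjusted p was 0.0292 in MHCIIhi macrophages and 0.00855 in monocytes. In neutrophils the mean was 3.59 RPKM in LP and 0.552 RPKM in tumours, and the fitted difference (−6.08, adjusted p = 0.00117) depends on the prior count, with an adjusted p of 0.111 by voom. T and NK cells make much Ccl5, and the summed RPKM of 7 of their genes was 0.624 to 1.47 in LP MHCIIhi macrophages and 1.32 to 3.39 in tumour MHCIIhi macrophages. The 6 dendritic cell genes stood at 10.1 to 14.4 and 0.0325 to 1.79 RPKM in those groups, and their part was not tested.

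The members called between tumour and LP were counted beside the share of all genes called. In monocytes 1 member rose and 0 fell, where 4.86% of all genes tested rose and 4.43% fell. In MHCIIhi macrophages 1 rose (8.01% of all genes) and 1 fell (11.5%), with a median difference of the members of −0.35. In MHCIIlow macrophages 1 rose (11.5%) and 5 fell (11.8%), with a median of −1.26 against 0.06 over all genes. In neutrophils 4 rose (13.1%) and 3 fell (19.0%), and of the 3 that fell Ccl5, Ccl7 and Ccl8 all rest on tumour libraries with few or no reads. With library sizes as summed reads, the split over all genes in neutrophils was 811 higher and 4291 lower instead of 1690 and 2452.

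**Figure D4:**
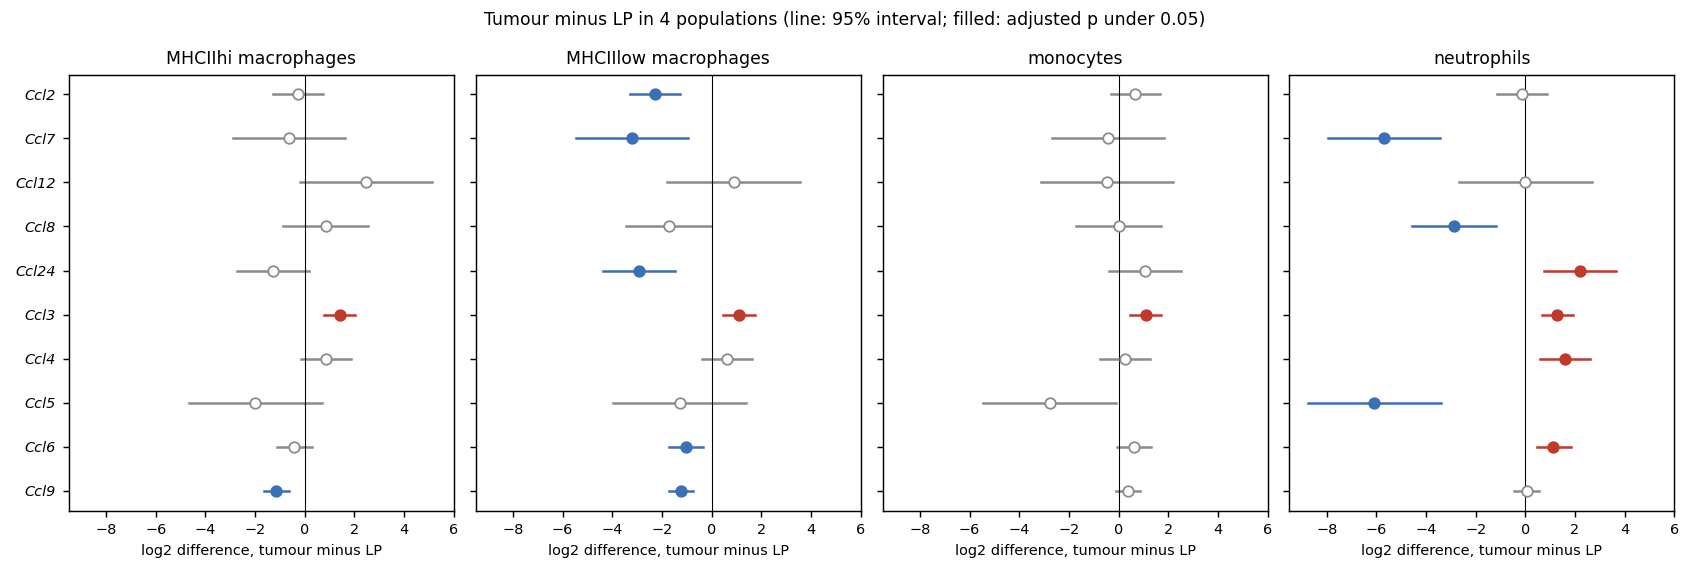
For each of the 10 CC chemokines (y axis) the log2 difference of tumour minus LP (x axis) is drawn in the 4 populations, with a line for the 95% interval and a filled point where the adjusted p is under 0.05. Ccl3 is filled on the right of 0 in all 4 panels, with differences of 1.41, 1.10, 1.09 and 1.28, and 5 genes are filled on the left in MHCIIlow macrophages.

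The 2 macrophage subsets differed in LP for 3 members. Ccl2, Ccl6 and Ccl9 were higher in MHCIIlow macrophages and 0 members were lower, where 2.13% of all genes were higher and 5.57% lower. The difference was 1.37 ± 0.33 for Ccl6 (adjusted p = 0.0133) and 0.81 ± 0.24 for Ccl9 (0.0399). Both rest in part on LP MHCIIlow library II, without which they were 0.87 (0.0796) and 0.57 (0.214). The summed monocyte genes were also highest in that library, at 452 RPKM against 124 RPKM in III and 141 RPKM in IV. Ccl6 was also lost without LP MHCIIhi library III (0.0525) or IV (0.0665), and Ccl9 without LP MHCIIhi library III (0.153), IV (0.0977) or V (0.068) or LP MHCIIlow library IV (0.0997). With the compared libraries alone the calls of Ccl6 (0.0561) and Ccl9 (0.0548) were lost. Ccl24 was 9.54, 13.4 and 17.8 RPKM in MHCIIhi against 66.5, 57.2 and 53.3 RPKM in MHCIIlow cells (2.16 ± 0.69, adjusted p = 0.0647) and passed the threshold under 10 of 18 alternatives.

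In tumours the subsets did not differ past the threshold for any member. By limma 0 members were higher or lower, where 0.567% of all genes were higher and 0.567% lower, and 2 members had an unadjusted p under 0.05. These were Ccl9, with 72.4, 86.4 and 58.6 RPKM in MHCIIhi and 117, 148 and 96.9 RPKM in MHCIIlow cells (0.73 ± 0.24, adjusted p = 0.168), and Ccl6 (0.75 ± 0.33, 0.369). Voom on the recovered reads also called 0 members, and the replicate block with the donor number as a fixed term called both Ccl9 (0.0211) and Ccl6 (0.0201). Ccl9 was also called after quantile normalization (0.0243) and with library sizes as summed reads (0.0407).

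Macrophages, as the mean of both subsets, were compared with monocytes within each tissue. In LP 4 members were higher in macrophages (12.5% of all genes) and 0 lower (17.0%): Ccl2 (1.67 ± 0.41, adjusted p = 0.00445), Ccl7, Ccl8 and Ccl12. In tumours 3 were higher (16.8%), Ccl7, Ccl8 and Ccl12, and 3 lower (21.4%). The 3 lower ones were Ccl6 (−1.48 ± 0.28, adjusted p = 0.000326), Ccl9 (−1.47 ± 0.21, 8.82e-06) and Ccl24. For Ccl2 in tumours the difference was −0.29 (95% interval −1.15 to 0.57), with 93.0, 46.0 and 57.9 RPKM in monocytes. Ccl4 in tumours was 0.99 ± 0.42 higher in macrophages (adjusted p = 0.0691), and 1.20 (0.0284) without tumour MHCIIhi library V.

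Neutrophils were compared with monocytes within each tissue, a comparison in which a large share of all genes tested also differed. In LP 4 members were higher in neutrophils (24.1% of all genes) and 4 lower (30.4%), and in tumours 3 were higher (23.3%) and 6 lower (34.9%). Ccl3 had the largest positive difference, 4.11 ± 0.30 in LP (adjusted p = 9.84e-10) and 4.30 ± 0.30 in tumours (3.76e-10). Ccl4 was higher by 2.12 ± 0.48 (0.00101) and 3.48 ± 0.48 (4.18e-06), and Ccl6 by 1.88 ± 0.33 (6.94e-05) and 2.39 ± 0.33 (3.55e-06). The LP call of Ccl4 was lost with quantile normalization (0.128). Ccl9 was lower in neutrophils (−2.49 and −2.82, adjusted p = 3.51e-08 and 5.19e-09), as was Ccl24 (−4.43 and −3.30, 2.17e-05 and 0.000424). Ccl2 was lower in tumour neutrophils (−1.65 ± 0.48, adjusted p = 0.00574), a call lost without tumour neutrophil library V (0.0533). The median of all genes stood at −0.24 in LP and −0.36 in tumours in these comparisons, and at −1.07 and −1.49 with library sizes as summed reads.

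The calls for the scarce members in these comparisons rest on few reads. In LP these are Ccl8, with 0, 4 and 2 reads in neutrophils and 0 in monocytes, and Ccl12, with 0 in neutrophils and 0, 19 and 10 in monocytes. Ccl8 was lost without LP neutrophil library IV (0.0539), and Ccl12 without LP monocyte library IV (0.136) or V (0.112) or LP neutrophil library III (0.0516) or IV (0.0515). In tumours Ccl12 (−3.08, adjusted p = 0.0449) was lost without tumour monocyte library I (0.377), which held 30 of the 31 reads. Ccl12 was also lost there without tumour monocyte library V (0.0555) or any 1 of the tumour neutrophil libraries (0.0807 to 0.0821). Ccl5 in LP (−3.12 ± 1.28, adjusted p = 0.0459) was lost without any 1 of the 6 libraries (0.0674 to 0.113).

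The tumour effect was compared between populations as an interaction. Between MHCIIlow and MHCIIhi macrophages 0 members differed (1.13% of all genes had a higher effect and 0.326% a lower one), and 2 members, Ccl2 and Ccl8, had an unadjusted p under 0.05. Between macrophages and monocytes 0 members had a higher effect (3.55%) and 4 a lower one (5.64%): Ccl2, Ccl6, Ccl9 and Ccl24. Each of these 4 was lower in tumour than in LP by the mean of both macrophage subsets and higher in tumour monocytes by value. The interaction was −1.57 ± 0.29 for Ccl9 (adjusted p = 0.00141), −3.16 ± 0.85 for Ccl24 (0.0219), −1.96 ± 0.58 for Ccl2 (0.0395) and −1.35 ± 0.40 for Ccl6 (0.0394). Between neutrophils and monocytes 0 members had a higher effect (3.61%) and 1, Ccl7, a lower one (5.50%), with −5.26 ± 1.53 (adjusted p = 0.035) that depends on the prior count in tumour neutrophils. The Ccl9 call held under every alternative run, whereas the calls of Ccl2, Ccl6, Ccl24 and Ccl7 were lost when any 1 of 11, 9, 3 and 9 libraries was left out. The Ccl2 call was also lost under the replicate block with the donor number as a fixed term (0.0645) and with library sizes as summed reads (0.0611), and the Ccl6 call with summed reads (0.0547). Between neutrophils and monocytes, Ccl5 passed without tumour neutrophil library V (−5.81, adjusted p = 0.000954) and Ccl8 without LP neutrophil library III (−4.32, 0.00164).

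Receptors for these ligands were read in the same libraries. Of 14 listed CC chemokine receptor genes that were measured, 9 passed the filter and were tested. Ccrl2, an atypical receptor that binds chemerin, rose in tumours in all 4 populations, by 2.14 ± 0.28 in MHCIIhi macrophages, 1.59 ± 0.28 in MHCIIlow macrophages, 2.33 ± 0.28 in monocytes and 1.37 ± 0.28 in neutrophils (adjusted p = 1.4e-05, 0.000271, 2.58e-05 and 0.00089). Ccr1, the receptor of Ccl3, Ccl5, Ccl6 and Ccl9, stood at 2250, 2560 and 3080 RPKM in tumour neutrophils and 2010, 1730 and 1820 RPKM in LP neutrophils (0.50 ± 0.16, adjusted p = 0.0217). It fell in tumour MHCIIhi (−0.69 ± 0.16, 0.00379) and MHCIIlow macrophages (−0.96 ± 0.16, 0.000157). Ccr2, the receptor of Ccl2, Ccl7 and Ccl12, was 99.7, 117 and 120 RPKM in LP monocytes and 85.7, 70.0 and 121 RPKM in tumour monocytes, against 1.00 to 15.5 RPKM in macrophages of both tissues. Over the 9 receptors, 1 rose and 2 fell in MHCIIhi macrophages, 1 rose and 1 fell in MHCIIlow macrophages, 1 rose and 1 fell in monocytes and 2 rose and 3 fell in neutrophils. The shares of all genes that rose and fell were 8.01% and 11.5%, 11.5% and 11.8%, 4.86% and 4.43%, and 13.1% and 19.0% in the same order, so nothing particular to the receptors is read from these counts.

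The other CC chemokines were scarce. Of 6 measured genes, 3 passed the filter and were tested: Ccl11, Ccl21a and Ccl22. Their highest library held 17.8 RPKM, of Ccl22 in LP neutrophils. Ccl21a, which stromal and lymphatic cells make, had 16 to 102 reads in LP MHCIIhi macrophages, LP monocytes and LP neutrophils and 6 to 40 reads in LP MHCIIlow macrophages, and 0 reads in 11 of the 12 tumour libraries. It fell in all 4 populations (adjusted p = 2.07e-05 to 0.000109).

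The genes whose log2 RPKM was most alike over the 24 libraries were sought among 5266 genes with a mean of at least 10 RPKM in at least 1 group. For Ccl8 they were Vcam1, Pla2g2d and C1qa, a complement gene of macrophages (Pearson r = 0.97, 0.965 and 0.962). For Ccl12 they were Hexa, Gna12 and Pon3 (0.961, 0.947 and 0.946), and for Ccl7 Trpv4, Naa50 and Pld2 (0.977, 0.964 and 0.96). For Ccl3 they were Abtb1, Hcar2 and Tgif1 (0.977, 0.975 and 0.975), for Ccl4 Egr1, Inpp5k and Tagap (0.92, 0.906 and 0.895), and for Ccl6 Clic1, Ripor2 and Carhsp1 (0.963, 0.957 and 0.956). For Ccl9 they were Capn2, Slc39a14 and Serpinb8 (0.947, 0.939 and 0.935), for Ccl5 Rgl1, Car13 and Cstf1 (0.922, 0.9 and 0.898), and for Ccl24 F13a1, Nupr1 and S100a10 (0.91, 0.884 and 0.842). For Ccl2 they were mt-Nd2, Tceal8 and mt-Nd4 (0.865, 0.823 and 0.816). Among the members themselves the highest r were 0.889 for Ccl3 with Ccl4 and 0.861 for Ccl8 with Ccl12, each a pair of neighbours on chromosome 11. These are descriptions over libraries that share pools and scaling, and the 8 groups set most of their spread.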

How the data were processed

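RNA from sorted colon myeloid cells was amplified with a modified SMARTSeq protocol without molecular identifiers and sequenced in paired ends. The authors aligned reads with STAR 2.3 to GRCm38/mm10, counted them on GENCODE genes with featureCounts 1.5, removed genes with few reads and deposited log2 RPKM made with edgeR, with a prior count of 0.25. Every deposited value gave a whole read number within 0.001 reads (100% of 415224 values), so reads were recovered per gene and library. No 2 library columns were identical.

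Groups came from the labels. The deposited log2 RPKM of 12878 genes with a mean of at least 1 RPKM in at least 1 group was fitted with limma 3.58.1 (R 4.3.3) as 8 group means over 24 libraries, with trended empirical Bayes moderation, and p-values were adjusted by Benjamini-Hochberg within each of 13 comparisons at 0.05. The fit shares 1 spread per gene. Values before a fold change are RPKM, differences are log2, errors are SE of the difference and intervals are 95%. Permuting 3 libraries against 3 cannot reach the threshold and was not used. The p-values rest on the spread between pools of mice within all 8 groups and not only those compared. For scarce members that spread includes libraries with few or no reads.

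The members and gene lists were chosen with earlier results of these data known. Genes named are the 10 members, genes among the listed other CC chemokines and receptors (not all are reported here), marker genes without reads and the 3 genes most alike to each member by Pearson r. Alternatives were log2(RPKM + 1), log2(RPKM + 0.1), no filter, a mean of at least 5 RPKM, quantile normalization, median centring, only the libraries compared, array weights, voom on recovered reads, the replicate block and each library left out. Library sizes as summed reads were an alternative added after seeing the data. The replicate number names a donor in the labels, so libraries of 1 tissue with the same number were paired. The deviations of 29 such pairs from their group means had r of −0.066 to 0.255 (median 0.017). In the comparisons of tumour with LP, the donor number as a fixed term instead joined libraries of both tissues by number. Those are pools of different mice, so that block is not a true pairing. Scripts were tested on simulated data. Tables and figures used python 3.11.15, numpy 2.4.6, pandas 2.3.3, scipy 1.17.1 and matplotlib 3.10.9.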

Additional observations from a re-analysis of the deposited data

Results flagged for a closer look

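The tumour effect (tumour minus LP, log2) differed between macrophages and monocytes for 4 members by an interaction term in limma. The effect in macrophages minus that in monocytes was −1.57 for Ccl9 (adjusted p = 0.00141), and no alternative ended this call. For Ccl24 it was −3.16 (0.0219), lost without LP monocyte library III (0.0859) or tumour monocyte library II (0.0722) or V (0.0594). For Ccl2 it was −1.96 (0.0395), lost without any 1 of 11 libraries (0.0538 to 0.13), the most without tumour monocyte library I, under the replicate block with the donor number as a fixed term (0.0645) and with library sizes as summed reads (0.0611). For Ccl6 it was −1.35 (0.0394), lost without any 1 of 9 libraries (0.0523 to 0.128), the most without LP monocyte library III. For Ccl7 the effect in neutrophils minus that in monocytes was −5.26 (0.035), with 0, 8 and 0 reads in tumour neutrophils, and was lost without any 1 of 9 libraries (0.0549 to 0.0849).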

How the results depend on the processing

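The number of members called moved past 1.5 times its value in 8 of the 13 comparisons under some alternative other than leaving out a library, and the cause was not tested. For tumour against LP in MHCIIhi macrophages it was 2, and 4 with log2(RPKM + 1), only the libraries compared or voom. In monocytes it was 1, and 2 with log2(RPKM + 1), log2(RPKM + 0.1), array weights or voom. In neutrophils it was 7, and 3 with quantile normalization or voom and 4 with array weights or library sizes as summed reads. For MHCIIlow against MHCIIhi macrophages in LP it was 3, and 7 with log2(RPKM + 1) or voom and 5 with log2(RPKM + 0.1), only the libraries compared or array weights. With only the libraries compared, Ccl6 and Ccl9 were not among the 5. For the subsets in tumours the number called was 0, and 1 with quantile normalization or summed reads and 2 under the replicate block with a fixed term. For the tumour effect it was 0 between the macrophage subsets, and 2 with log2(RPKM + 1), 1 with only the libraries compared and 3 with voom. Between macrophages and monocytes it was 4, and 2 with summed reads. Between neutrophils and monocytes it was 1, and 0 with log2(RPKM + 1), quantile normalization, only the libraries compared or voom. Leaving out 1 library gave 0 to 1 members for tumour against LP monocytes, 0 to 3 for the LP macrophage subsets, 5 to 7 for LP neutrophils against monocytes, and 1 to 4 and 0 to 1 for the tumour effects against monocytes. Ccl8 between tumour neutrophils and monocytes, all at 0 reads, became 2.09 after quantile normalization. The replicate block as a fixed term changed 8 of 130 member calls: 3 gained (Ccl24 in the LP subsets, 0.00418, and Ccl6 and Ccl9 in the tumour subsets) and 5 lost (Ccl7 in MHCIIlow macrophages and Ccl6 in neutrophils between the tissues, Ccl2 in the LP subsets, Ccl5 in LP neutrophils against monocytes, 0.0579, and the Ccl2 tumour effect). It changed no other call, and with the pool as a random effect 1 was gained. Between the tissues the fixed term joined LP and tumour pools by number, although these are pools of different mice.

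With library sizes as summed reads, the split of all genes into higher and lower also moved: 1327 and 1215 (1031 and 1480 as deposited) for MHCIIhi macrophages and 421 and 856 (626 and 571) for monocytes between the tissues, 683 and 388 (274 and 717) for the LP subsets, 157 and 41 (73 and 73) for the tumour subsets, 3296 and 1739 (2167 and 2760) for tumour macrophages against monocytes, and 1689 and 6224 (3103 and 3913) in LP and 1343 and 7347 (2997 and 4489) in tumours for neutrophils against monocytes. With voom the calls over all genes were 3797 (2511) in MHCIIhi macrophages and 2768 (4142) in neutrophils. Libraries with 0 to 30 reads of a member (Ccl5 and Ccl7 in tumour neutrophils, Ccl8 and Ccl12 in neutrophils and monocytes) give imprecise values.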
